A study of Rattus norvegicus with 10 samples.

Results

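Tanycytes are radial glia-like cells that line the floor and the lower walls of the third ventricle, next to the arcuate nucleus (ARC), the nutrient-sensing nucleus of the mediobasal hypothalamus. Their cell bodies touch the cerebrospinal fluid and their long processes reach into the ARC and the median eminence, where they contact blood vessels. They are known for activating thyroid hormone within the hypothalamus, for passing hormones and nutrients between blood, cerebrospinal fluid and neurons, and for keeping progenitor properties in the adult brain. A list of 7 genes used as markers of these cells was examined here, namely *Dio2*, *Crym*, *Gpr50*, *Rax*, *Vim*, *Nes* and *Col25a1*. Members were found by an exact match of the gene symbol in the table of gene expression, and 5 of the 7 had a row among 12828 rows. *Dio2*, the deiodinase that makes active thyroid hormone from its precursor, and *Nes*, the intermediate filament protein of neural progenitors, were not analysed here.

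RNA was taken from the ARC of 10 Wistar rat dams immediately after they had given birth, 5 fed a 5X-FA diet and 5 fed a 5X-MTHF diet during pregnancy. Both diets held 5 times the recommended amount of folate, given as folic acid (FA) or as an equimolar amount of [6*S*]-5-methyltetrahydrofolic acid (MTHF), the reduced form that the body uses. All dams were in their first pregnancy and were fasted in the daytime before termination. Each brain was frozen whole and the ARC was cut out freehand from a coronal slice with the third ventricle as the guide. Whether the lining of the ventricle was kept in the piece is not given in the sources used here. Such a piece of tissue holds many cell types, and fewer cells of a type cannot be told apart from less RNA per cell. The design of the study compares the diets. The diet effect on the tanycyte genes was not analysed here. The values per dam carry no name that ties them to a diet group. The authors' own comparison of diets, given for each row, was not used. What follows describes how strongly the tanycyte genes were read in this tissue over all libraries of the table together, with no spread between dams.

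The measure is the average log2 CPM (read counts scaled to a common library total) over all libraries, and a step of 1 on this scale is a 2-fold difference in reads. It is not corrected for transcript length, so a long transcript collects more reads than a short one at the same number of molecules. A place among all rows by this measure is therefore a place by reads and not by molecules. The rows may be only the genes that a filter kept. Over all 12828 rows it had a median of 4.94, which is 30.7 CPM, and extremes of -2.07 and 14.56. Of the 5 tanycyte genes, 3 lay above that median and 2 below it, and the median of the 5 was 5.42.

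Thyroid hormone handling was represented by *Crym*, which encodes mu-crystallin, a cytosolic protein that binds thyroid hormone. *Crym* (ENSRNOG00000061215) is protein-coding and lies on chromosome 1 of Rnor_6.0 from 189944895 to 189960073, a span of 15.2 kb. Its average log2 CPM was 5.53, or 46.1 CPM, at percentile 62.2 of all rows by reads. *Crym* is not particular to tanycytes, as neurons of the cerebral cortex and striatum are also known to express it. Lists of markers of those neurons were therefore read beside it, and they are described further down.

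*Gpr50* encodes an orphan receptor related to the melatonin receptors and is a classical marker of tanycytes in rodents. *Gpr50* (ENSRNOG00000011335) was read at an average log2 CPM of 1.78, or 3.44 CPM, at percentile 5.59 of all rows by reads. In Rnor_6.0 its row lies on chromosome 17 from 36771639 to 36776225, a span of 4.59 kb. These coordinates fall wholly inside the span of 1 other row of the table, the protein-coding gene model AABR07027567.1, whose average log2 CPM was 3.34. Whether exons of the gene models overlap cannot be seen from the spans, and how reads shared between overlapping models were counted is not given in the sources used here, so the level of *Gpr50* is uncertain. A newer rat assembly of RefSeq, GRCr8, places *Gpr50* on a different chromosome and the other 4 members on the same one as in the table. None of the other 4 members overlapped the span of another row of the table. Gene models without a row were not checked.

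The member with the fewest reads was *Rax*, a homeobox transcription factor of the developing eye field and hypothalamus whose expression in the adult hypothalamus is kept mainly by tanycytes. *Rax* (ENSRNOG00000016944) lies on chromosome 18 of Rnor_6.0 from 61638352 to 61642056 and spans 3.71 kb. Its average log2 CPM was 0.08, or 1.06 CPM, at percentile 1.04 of all rows by reads. The value of *Rax* thus rests on the fewest reads of the 5. The nearest rows of the table were *Grp*, the gene of gastrin-releasing peptide, at a distance of 61.5 kb with an average log2 CPM of 1.51, and *Lman1*, a cargo receptor of the endoplasmic reticulum, at 43.1 kb with 5.13. The flanking genes thus differed, with few reads for one and 35.0 CPM for the other.

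*Vim* had the most reads of the members. It encodes vimentin, the intermediate filament protein that fills the long processes of tanycytes, and it is also made by endothelial cells, by pericytes and by some astrocytes. *Vim* (ENSRNOG00000018087), on chromosome 17 of Rnor_6.0 from 80882666 to 80891212 with a span of 8.55 kb, had an average log2 CPM of 7.32. This corresponds to 160.0 CPM and to percentile 90.3 of all rows by reads. Both nearest rows held far fewer reads. *Trdmt1*, a transfer RNA methyltransferase at a distance of 22.5 kb, had an average log2 CPM of 3.73, and *St8sia6*, a sialyltransferase at 69.6 kb, had one of 1.16.

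*Col25a1* encodes a membrane-bound collagen that neurons are known to make as well. *Col25a1* (ENSRNOG00000050706) spans 118.9 kb of chromosome 2 of Rnor_6.0, from 235596123 to 235715057, the longest span of the 5. Its average log2 CPM was 5.42, or 42.7 CPM, at percentile 59.8 of all rows by reads. The nearest row, *Etnppl*, an ethanolamine-phosphate lyase known from astrocytes, lay at a distance of 23.4 kb and had an average log2 CPM of 6.65.

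In order of reads, the members were therefore *Rax*, *Gpr50*, *Col25a1*, *Crym* and *Vim*. The step from *Rax* to *Gpr50* was 1.70 log2 units, that from *Gpr50* to *Col25a1* was 3.63, and that from *Crym* to *Vim* was 1.80. *Col25a1* and *Crym* differed by only 0.11 log2 units, a 1.08-fold difference in reads. From *Rax* to *Vim* the difference in average log2 CPM was 7.24, or 151-fold in reads. The spread between dams was not computed, so none of the steps was tested. Part of each step may come from transcript length, which was not tested. The members fell into a low pair, *Rax* and *Gpr50*, and 3 genes read at 42.7 CPM or more. The place of *Gpr50* in the low pair is uncertain, as its level is. Why the members differed in reads was not tested.

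**Figure D1:**
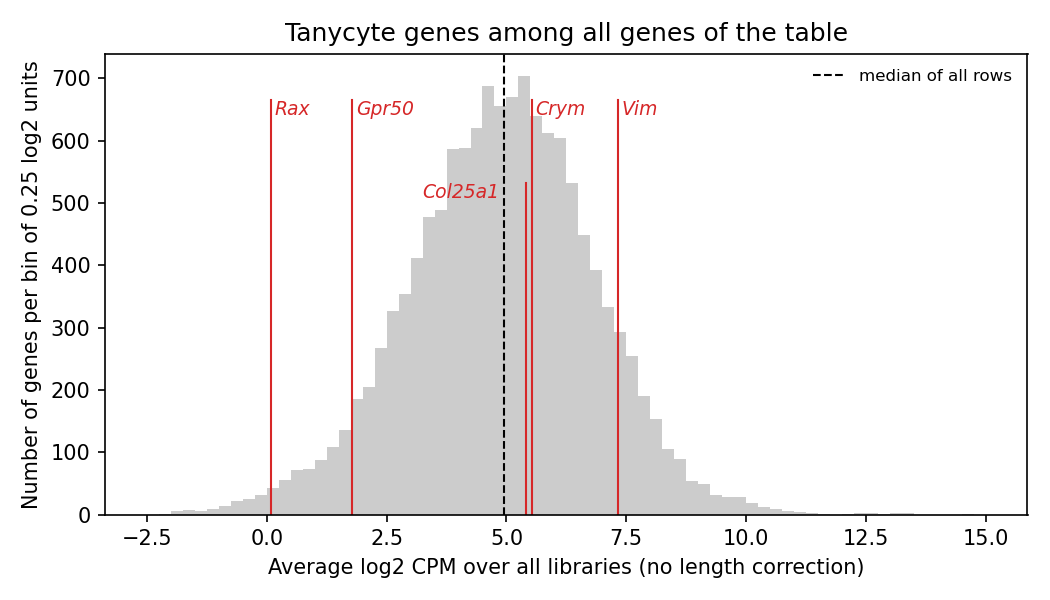
Histogram of the average log2 CPM over all libraries (x axis, no length correction) for all 12828 rows, with the number of genes per bin of 0.25 log2 units on the y axis. Red lines mark the 5 tanycyte genes and the dashed line marks the median of all rows, 4.94; *Rax* at 0.08 and *Gpr50* at 1.78 stand in the lower tail, *Col25a1* at 5.42 and *Crym* at 5.53 just above the median, and *Vim* at 7.32 in the upper part.

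Other genes known from tanycytes were read from a second list, and 22 of its 25 genes had a row. Their values spread from 0.48 to 7.97 around a median of 4.43, and 9 of the 22 lay above the median of all rows. The 3 with the most reads were *Ptn*, a growth factor of glia, at 7.97, *Igfbp5*, a binding protein of insulin-like growth factors, at 7.80, and *Prdx6*, a peroxidase of glia, at 7.65. Like *Vim*, these genes are also known from other cells of the brain. *Scn7a*, an atypical sodium channel of glia that is known for sensing sodium, had an average log2 CPM of 4.15, and *Lhx2*, a homeobox factor known to act with *Rax* in tanycytes, one of 3.65. *Fndc3c1*, a marker found in rodent tanycytes, stood at 1.90, near *Gpr50*. The lowest of the list were *Adm*, the peptide adrenomedullin, at 1.23, and *Fgf18*, a fibroblast growth factor, at 0.48. *Fgf10*, *Col23a1* and *Six6* were not analysed here. These genes outside the members were singled out after their values were seen, except for the 3 with the most reads.

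The genes of thyroid hormone handling, the function for which *Crym* and *Dio2* stand, had a row for 19 of 23. Of the 19, 14 lay above the median of all rows, and their median average log2 CPM was 5.64. The thyroid hormone receptors *Thra* and *Thrb* had values of 8.33 and 5.64, and *Slco1c1*, a carrier that brings the hormone into cells, had 6.46. *Trhde*, the enzyme that degrades thyrotropin-releasing hormone and is known from tanycyte endfeet, had a value of 4.95, and *Trh*, the releasing hormone itself, had 5.96. *Klf9*, a transcription factor induced by the hormone, stood at 6.54. *Ncor1* and *Ncoa1*, a co-repressor and a co-activator of nuclear receptors, stood at 7.54 and 7.49. *Crym*, at 5.53, was near the middle of this list. *Trhde* is a member of the second tanycyte list as well, so the lists are not independent of each other. *Dio1*, *Dio3* and *Slc16a10* were not analysed here.

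Markers of the cells next to tanycytes on the ventricle, and of cells that share their genes, were read in the same way. Ependymal cells, the ciliated cells of the ventricle wall, had a row for 7 of 10 markers, with a median average log2 CPM of 3.21 and 0 of the 7 lay above the median of all rows. The 3 with the most reads were *Hydin*, a protein of motile cilia, at 4.90, *Rarres2*, the precursor of chemerin, at 4.03 and *Enkur*, a protein of cilia, at 3.57. *Foxj1*, the factor that defines these cells, was not analysed here. Astrocytes had a row for all 10 markers, all above the median of all rows, with a median of 9.38 and a lowest value of 5.00 (*Sox9*). Their 3 highest values were 10.33 for *S100b*, a calcium-binding protein, 10.22 for *Aqp4*, the water channel of astrocyte endfeet, and 9.99 for *Aldoc*, an aldolase. Endothelial cells and pericytes, in which *Vim* and *Nes* are also known, had a row for 9 of 10 markers, with a median of 4.85 and a lowest value of 2.26 (*Kcnj8*). *Flt1*, a receptor of vascular endothelial growth factor, stood at 6.28, *Slco1a4*, a transporter of the blood-brain barrier, at 6.27 and *Cldn5*, a tight junction protein, at 5.77. Thus *Vim* was read more than the 9 vessel markers, less than 8 of the 10 astrocyte markers and more than the 7 ependymal ones. What part of the *Vim* reads came from each cell type was not tested.

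Markers of ARC neurons were read as well, of which 9 of 10 had a row. With no other tissue beside them, their levels cannot test the label of the tissue. *Esr1*, an estrogen receptor, stood at 4.49, *Tac3*, the gene of neurokinin B, at 4.34 and *Prlr*, the prolactin receptor, at 2.21. *Pomc*, the precursor of melanocortins, had an average log2 CPM of 4.67, *Agrp*, the agouti-related peptide, 1.42, *Ghrh*, the growth hormone-releasing hormone, 1.02, and *Kiss1*, kisspeptin, 0.08. Their list had a median of 4.34, and 2 of the 9, *Cartpt* at 6.02 and *Sst* at 6.35, lay above the median of all rows, while *Npy* was not analysed here. *Kiss1* and *Rax* stood at the same 0.08. Of 10 markers of cerebral cortex and hippocampus neurons, 8 had a row, with a median of 5.07 and a highest value of 8.44 for *Camk2a*, a kinase of excitatory neurons. *Slc17a7*, the vesicular glutamate transporter of those neurons, had 7.17 and *Nrgn*, a postsynaptic calmodulin-binding protein, had 7.48, but *Emx1* was not analysed here and *Neurod6* and *Neurod2* stood at 2.40 and 2.13. All 10 markers of striatal neurons had a row, with a median of 5.67, and 7 of them lay above the median of all rows. *Penk*, the precursor of enkephalins, had the highest value of the list, 7.68. *Drd1* stood at 5.01, *Drd2* at 4.70, *Adora2a* at 4.26 and *Rarb* at 3.96, and of these only *Drd1* lay above the median of all rows. *Ppp1r1b*, a phosphatase inhibitor listed for both tanycytes and striatal neurons, had an average log2 CPM of 7.07. Genes listed as markers of cortical, hippocampal and striatal neurons were thus read in the same libraries as *Crym* and *Col25a1*, and *Ppp1r1b* is itself on the striatal list. Whether the reads of these markers came from neurons outside the ARC was not tested. The part of such neurons in the levels of *Crym*, *Col25a1* and *Ppp1r1b* was not tested either.

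The pars tuberalis is the strip of pituitary tissue that lies against the median eminence below the tanycytes. A list of 9 genes of the pars tuberalis and the rest of the pituitary was read, of which 4 had a row. *Cga*, the common subunit of the glycoprotein hormones, had an average log2 CPM of 4.95, and *Tshb*, the subunit that makes thyrotropin, had 3.37. The value of *Pomc*, which the ARC also makes, is given above. *Prl*, *Gh1*, *Pou1f1*, *Lhx3* and *Pitx1* were not analysed here. *Tshb* was thus read at a higher average log2 CPM than *Gpr50* and *Rax* and at a lower one than *Col25a1*, *Crym* and *Vim*.

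**Figure D2:**
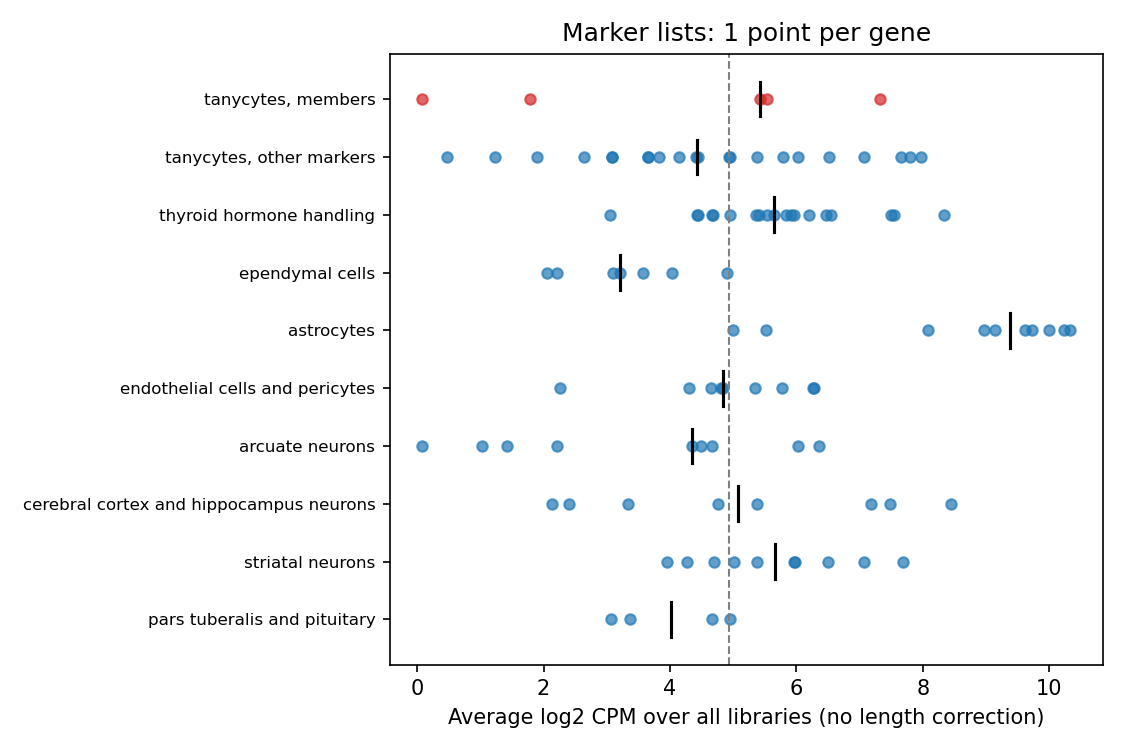
Average log2 CPM over all libraries (x axis, no length correction) of the tanycyte genes (red) and of 9 further lists (blue), 1 point per gene, with a black tick at the median of each list and a dashed line at the median of all rows, 4.94. The 10 astrocyte markers reach from 5.00 to 10.33 and the 7 ependymal markers lie between 2.06 and 4.90, while the tanycyte genes spread from 0.08 to 7.32.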

How the data were processed

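Poly-A selected libraries of the ARC were made from 10 dams. Per the labels and the methods of the study, reads were trimmed with Trim Galore 0.5.0, aligned with STAR 2.6.0c to Rnor_6.0 with Ensembl gene models and counted with HTSeq 0.6.1p2. The authors deposited 1 table of 12828 rows, 12383 of them protein-coding, with an average level per gene on a log2 CPM scale over all libraries. The methods describe a minimum of reads per gene and a further filter on the mean count before the authors' own comparison. The name of the deposited table holds Filt, so its rows may be only the genes that a filter kept. A percentile among all rows is then a place among the genes kept. Which filter was applied, and the step that made the average, are not given in the sources used here. Raised from base 2, the column sums to 1002152 over all rows, so its log base was taken as 2. A further 4 columns hold the authors' comparison of 2 diets (a fold change, its test statistic, its p-value and the false discovery rate), and no step used them. Another 10 columns of values per sample, headed only by a number, could be tied to no sample label and were left out. The name of the deposited table holds FPKM, a measure scaled to library total and transcript length, so these values may be corrected for length. Tests of diet were therefore not run. The spread over these columns needs no sample label, but it was not computed. The depth of single libraries was not obtained. The methods give 1 approximate depth for all samples.

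Percentiles are mean ranks among all rows, and list medians are over genes with a row. Rows were matched by symbol, coordinates are those of the table, and spans run from the first to the last base of a gene model. RefSeq's GRCr8 was read only for the chromosome of each member. The percentile calculation was tested on simulated data. The members and lists were chosen with earlier results of these data known. Genes were named by rule: all members with a row, and the 3 genes with the most reads of each other list, of which some are not reported here. Any other gene was named after its values were seen. Calculations were run in pandas 2.3.3, scipy 1.17.1 and numpy 2.4.6 under Python 3.11.15, and plots were drawn with matplotlib 3.10.9.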

Additional observations from a re-analysis of the deposited data

How the results depend on the processing

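The percentiles of the tanycyte genes were recomputed among other sets of genes. Among the 12383 protein-coding rows they were 0.549 for *Rax*, 4.20 for *Gpr50*, 58.7 for *Col25a1* and 61.2 for *Crym*, and 90.1 for *Vim*. Among the 9621 rows at or above the lower quartile of 3.65 average log2 CPM they were 46.4 for *Col25a1*, 49.7 for *Crym* and 87.1 for *Vim*, since rows with fewer reads were left out, while *Rax* and *Gpr50* lie under that quartile and have no value there. *Col25a1* and *Crym* thus lay above the middle of all rows and of the protein-coding rows, but just under it among the better-read rows. The order of the 5 members is the same in each set by construction. A level per length was not run. Spans of gene models include introns, and no transcript length was used. The 10 columns of values per sample, which may be corrected for transcript length, were left out, so a mean over them was not computed. Other pseudocounts, filters, centring, fits without one dam and count tests of the diets were not run, because no value per dam was used. No paired analysis was possible because the columns of values per dam carry no replicate number that ties them to a sample. Nor is a pairing known to exist. The paper states that dams were allocated to the diets at random, and it describes no matching of dams by replicate number. The methods give 1 approximate depth for all samples, while the reads counted in each library were not obtained, and no interval for counting error was computed.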
